A study of Mus musculus with 24 samples.

Results

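The homeostatic microglia genes are a set of 29 genes that mark microglia, the resident macrophages of the brain, in their surveying state. They were chosen as a list of gene symbols with earlier results of these data known. All 29 were found among the 40836 genes of the count table. All 29 also passed the filter on low counts that left 20437 genes to test. In healthy brain, microglia patrol the tissue, sense nucleotides and chemokines through G protein-coupled receptors, and depend on signals from other cells for survival and identity. Colony-stimulating factor 1 and interleukin 34 act through the receptor Csf1r, transforming growth factor beta acts through Tgfbr1 and Tgfbr2, and fractalkine on neurons binds Cx3cr1. The transcription factors Spi1 (PU.1), Irf8 and Sall1 set up this identity, and many of the genes fall when microglia leave the surveying state.

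The libraries came from polyadenylated RNA of mouse brain, extracted from bulk tissue with TRIzol, and were read on a NovaSeq instrument. There were 24 libraries in 6 groups of 4, named by an E code and a time code: E4-05, E3-05, E4-10, E3-10, E4-15 and E3-15. The labels spell out neither code and give no strain, age or treatment; the series title names ApoE4 and Alzheimer's disease, and the E code was taken as the main labelled contrast. The titles name a month for each library, from January to June, and each time code holds libraries of 2 months of its own, so time code and titled month cannot be told apart. A library is named below by its group and number, as in E3-10 1. Libraries held between 37.4 M and 99.5 M counts.

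The columns of the count table are headed 1 to 24, and the 8 columns whose header is a multiple of 3 were rich in hindbrain RNA. This split follows the column header; it was noticed from genes of the cerebellum and hindbrain, not from the microglia genes, and is no labelled group. Gabra6, a GABA receptor chain of granule cells in the cerebellum, had 85.5 to 533 CPM (counts scaled for library size with edgeR's TMM factors) in the 8 hindbrain-rich libraries and 0 to 4.63 CPM in the other 16. Drd1, a dopamine receptor of striatal neurons, had 0.811 to 2.55 CPM in the hindbrain-rich libraries and 10.6 to 115 CPM in the other libraries. The 8 comprised 4 E4 libraries (E4-05 3, E4-10 2, E4-15 1 and E4-15 4) and 4 E3 libraries (E3-05 2, E3-10 1, E3-10 4 and E3-15 3). E3-10 1 was the highest of the 8: the 29 genes averaged 3.39 log2 CPM in it and 2.89 to 3.14 log2 CPM in the other 7 hindbrain-rich libraries. Its mean over 12 oligodendrocyte genes (8.95 log2 CPM against 7.83 to 8.23) and over 12 endothelial genes (5.56 against 5.06 to 5.27) was also the highest of the 8. So was its mean over 12 pan-neuronal genes (9.34 log2 CPM against 8.88 to 9.23), over the maintenance signals of microglia (5.51 against 5.33 to 5.44) and over disease-associated microglia genes (4.52 against 3.95 to 4.42). The part of these cells in its microglia gene level was not tested.

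The label was checked on levels. Levels were set per kilobase of exon. Medians over the 16 other libraries were highest for Csf1r (18.4 CPM per kb), P2ry12 (16.4), Laptm5 (14.9), Cx3cr1 (13.2) and Fcrls (11.3). The lowest were 0.419 for Gpr183 and 0.252 CPM per kb for Ptprc. The lengths join all annotated exons of a gene, 18313 bases for Ptprc, so this order is only rough. All 29 genes were detected in every library. A second list of 26 other core microglia genes, such as C1qa and Trem2, followed the level of the 29 across libraries, with Pearson r between the list means of 0.93 in the 8 hindbrain-rich libraries and 0.94 in the 16 others. Without the 2 libraries farthest from the median of that list, r was 0.80 in the 8 and 0.89 in the 16. Several of the 29 are not exclusive to microglia: Tgfbr1, Tgfbr2 and Rnase4 are known to be expressed in other brain cells as well, and Csf1r, Cx3cr1, Aif1 and Ptprc also in macrophages at the borders of the brain.

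The homeostatic microglia genes were lower in hindbrain-rich libraries almost without exception. Of the 29, 28 passed the test as lower, 0 passed as higher and 1, Tgfbr2, did not pass (edgeR's quasi-likelihood test, Benjamini-Hochberg adjusted p under 0.05 over 20437 genes, with the 6 groups in the fit). The background was high, since 27.4% of all genes tested passed as lower, 30.1% as higher and 57.5% in either direction. The median log2 fold change of the 29 was -0.91, which is 0.532 of the level in the other libraries, and the median over all genes tested was 0.04. The mean of the 29 was 2.89 to 3.39 log2 CPM in the 8 hindbrain-rich libraries and 3.66 to 4.16 log2 CPM in the 16 other libraries. These are bulk samples, in which fewer microglia and less RNA of these genes per microglial cell cannot be told apart.

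**Figure D1:**
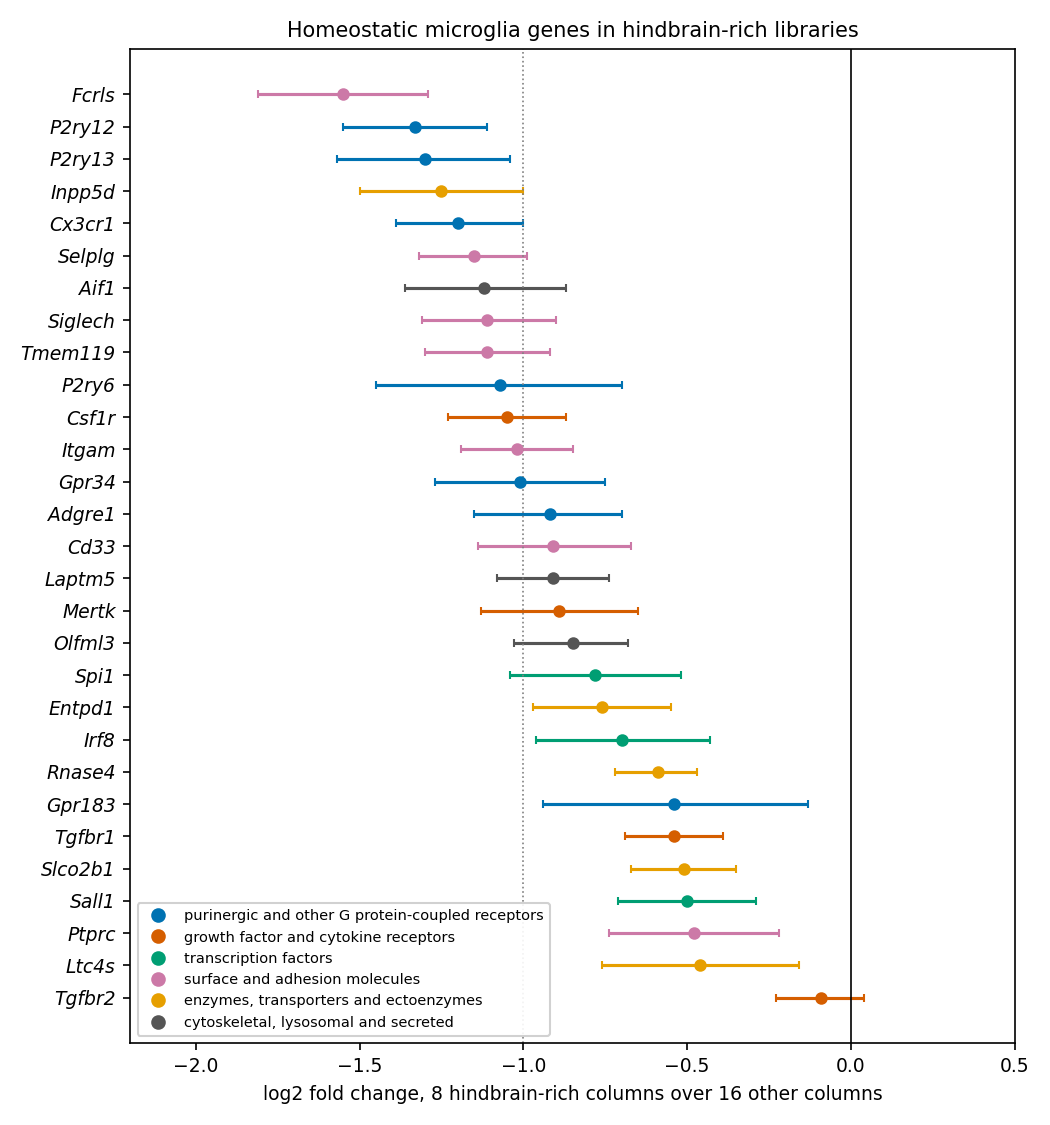
Log2 fold change of each of the 29 genes, 8 hindbrain-rich columns over 16 other columns, with 95% intervals from the edgeR fit; genes run down the page. All 29 points lie below 0, from -1.55 for Fcrls to -0.09 for Tgfbr2, whose interval reaches 0.04.

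The ranges of CPM did not overlap between the 8 and the 16 libraries for 17 of the 29 genes, and all 17 were lower in the hindbrain-rich libraries. Over all genes tested, 7.72% had ranges apart in that direction and 5.97% in the other. The columns also form 8 sets of 3 adjacent headers, each with 1 hindbrain-rich library. In all 8 sets the hindbrain-rich library was the lowest of the 3 for 22 of the 29 genes, against 13.3% of all genes tested. For 13 genes the fitted level was below 0.5 of that in the other libraries. The share of all genes tested below that limit was not counted, so this count only describes the 29. Within each class the median coefficient of variation of CPM over the 29 was 17.4% in the 8 hindbrain-rich libraries and 15.6% in the 16 others.

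Promoter windows were read for the genes at the ends of this range, to show the sequences near their starts. RefSeq windows of GRCm38.p6, from 250 bases before to 50 bases after the start, were at hand for 22 of the 29 genes; the authors counted on mm39, so these coordinates are not those of the counts. The 4 windows below are all on the minus strand and are written 5′ to 3′ along the gene, with the core GAGGAAG in capitals, a motif bound by PU.1 (the product of Spi1). P2ry12 lies at chr3:59262936-59263235, P2ry13 at chr3:59210833-59211132, Fcrls at chr3:87263475-87263774 and Tgfbr2, the gene that did not pass, at chr9:116175314-116175613.
P2ry12: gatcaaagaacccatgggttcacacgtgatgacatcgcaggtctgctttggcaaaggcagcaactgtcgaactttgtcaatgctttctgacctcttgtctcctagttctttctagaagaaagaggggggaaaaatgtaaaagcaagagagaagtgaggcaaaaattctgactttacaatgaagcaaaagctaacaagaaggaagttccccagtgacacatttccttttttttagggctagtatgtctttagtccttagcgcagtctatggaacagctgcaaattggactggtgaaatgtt
P2ry13: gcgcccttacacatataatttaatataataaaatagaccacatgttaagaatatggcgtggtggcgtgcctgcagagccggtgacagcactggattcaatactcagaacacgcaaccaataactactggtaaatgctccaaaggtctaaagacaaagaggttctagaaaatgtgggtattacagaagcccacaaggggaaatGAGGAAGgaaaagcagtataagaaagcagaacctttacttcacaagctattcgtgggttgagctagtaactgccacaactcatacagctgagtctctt
Fcrls: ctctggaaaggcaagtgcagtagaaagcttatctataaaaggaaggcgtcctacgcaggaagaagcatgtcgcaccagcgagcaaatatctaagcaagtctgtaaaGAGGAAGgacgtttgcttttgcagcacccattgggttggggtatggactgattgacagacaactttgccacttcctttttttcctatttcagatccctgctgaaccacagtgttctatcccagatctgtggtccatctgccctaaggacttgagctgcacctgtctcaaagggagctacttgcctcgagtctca
Tgfbr2: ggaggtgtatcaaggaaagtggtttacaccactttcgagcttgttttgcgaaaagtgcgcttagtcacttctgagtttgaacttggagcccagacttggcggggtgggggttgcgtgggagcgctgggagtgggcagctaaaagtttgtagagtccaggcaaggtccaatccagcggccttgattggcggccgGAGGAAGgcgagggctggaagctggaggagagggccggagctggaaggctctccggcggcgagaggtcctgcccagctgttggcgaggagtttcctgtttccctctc
Searched on both strands, GAGGAAG was in 12 of the 31 windows of these genes (38.7%, in 11 of 22 genes) and in 13.6% of all 32851 windows of the table. The AP-1 motif TGACTCA was in 1 of 31 (3.23%), the window of Slco2b1, and in 5.2% of all windows. A composite motif of PU.1 and interferon regulatory factors was in 0 of 31 windows of the genes and in 2.72% of all windows. The core was present both in Fcrls, the gene with the most negative fold change, and in Tgfbr2, the least negative, and it was not found in the P2ry12 window.

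All 7 G protein-coupled receptors passed as lower, with a median log2 fold change of -1.07. P2ry12, the ADP receptor that guides microglial processes to injured cells, had 14.5, 16.0 and 18.7 CPM (lowest, median and highest) in the 8 hindbrain-rich libraries and 27.8, 41.7 and 59.4 CPM in the 16 others. The groups did not overlap, and the highest hindbrain-rich library lay well below the lowest other library. Its log2 fold change was -1.33 (SE 0.11, 95% interval -1.55 to -1.11, edgeR adjusted p = 1.38e-09).

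Cx3cr1, the fractalkine receptor, had 23.8, 24.5 and 32.9 CPM in the hindbrain-rich libraries and 45, 59.6 and 73.9 CPM in the others. Again the groups did not overlap, and 7 of the 8 hindbrain-rich libraries lay between 23.8 and 26 CPM, with E3-10 1 above them. The log2 fold change of Cx3cr1 was -1.20 (SE 0.09, edgeR adjusted p = 1.15e-09). P2ry13, another ADP receptor, changed by -1.30 on the log2 scale, and Gpr34, a receptor for lysophosphatidylserine, by -1.01; both also had ranges apart. Adgre1 (the macrophage antigen F4/80) changed by -0.92.

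P2ry6, a UDP receptor linked to phagocytosis, passed at -1.07 but its ranges overlapped, at 1.12 to 2.64 CPM in the hindbrain-rich libraries and 2.20 to 4.41 CPM in the others. Gpr183, a receptor for oxysterols, had 0.509 to 1.18 CPM in the hindbrain-rich libraries and 0.414 to 1.74 CPM in the others. Its groups overlapped widely. It passed at -0.54 (SE 0.20, edgeR adjusted p = 0.024), and that call was lost without any one of E4-05 3, E4-15 2 or E3-15 3, at adjusted p = 0.075, 0.0542 and 0.061.

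**Figure D2:**
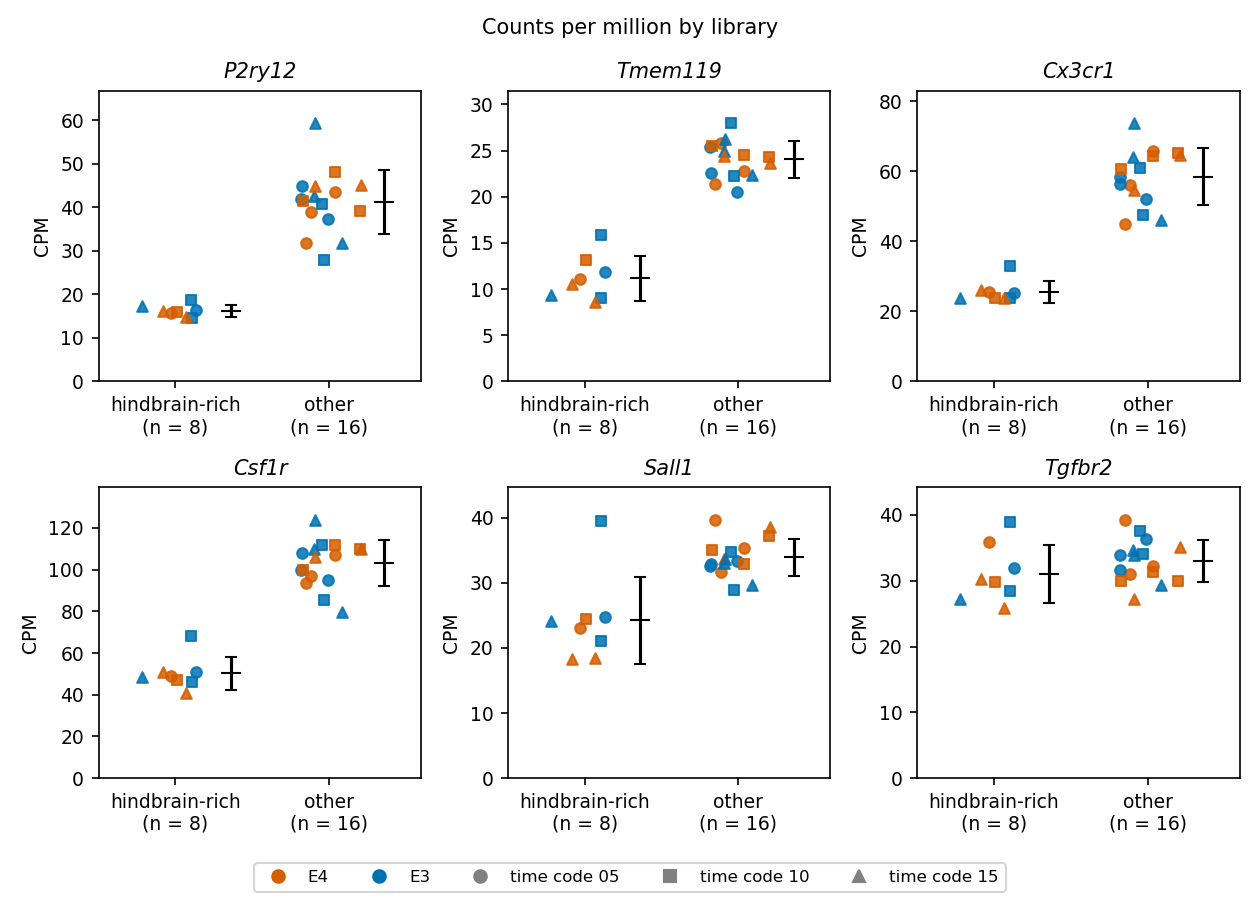
CPM per library of members of the list in the 8 hindbrain-rich libraries and the 16 other libraries, each point 1 library (orange E4, blue E3), on y axes that start at 0, with black bars for the mean ± SD of each class. P2ry12, Cx3cr1, Csf1r and Tmem119 have no overlap between the classes, while Sall1 overlaps through E3-10 1 at 39.5 CPM.

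Among the 7 surface and adhesion molecules all passed as lower, with a median of -1.10 on the log2 scale, and 6 had ranges apart. Fcrls, an Fc receptor-like protein used to mark mouse microglia, had 6.13, 9.61 and 11.8 CPM in the hindbrain-rich libraries and 19.2, 26.4 and 32.5 CPM in the others. It had the most negative fold change of the 29, -1.55 (SE 0.12, edgeR adjusted p = 1.55e-09). Selplg, the ligand of P-selectin, had the smallest p of the 29, with 16.9, 19.2 and 24.5 CPM in the hindbrain-rich libraries and 32.1, 43.6 and 51.8 CPM in the others. Its log2 fold change was -1.15 (SE 0.08, edgeR adjusted p = 2.18e-10).

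Tmem119, a transmembrane protein that separates microglia from most other macrophages, had 8.56, 10.8 and 15.8 CPM in the hindbrain-rich libraries and 20.5, 24.3 and 28.0 CPM in the others. The groups did not overlap, and among the 16 others Tmem119 varied little (coefficient of variation 8.24%). Its log2 fold change was -1.11 (SE 0.09, edgeR adjusted p = 2.29e-09). Siglech and Cd33, both sialic acid-binding lectins, changed by -1.11 and -0.91, and Itgam, the integrin chain CD11b, by -1.02. Ptprc, the pan-leukocyte phosphatase CD45, was the exception in size, at -0.48 (edgeR adjusted p = 0.00223), and its ranges overlapped, at 2.09 to 4.53 CPM in the hindbrain-rich libraries and 3.07 to 6.73 CPM in the others.

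Of the 4 growth factor and cytokine receptors, 3 passed as lower. Csf1r, the receptor on which microglial survival depends, had 41.0, 48.7 and 68.3 CPM in the hindbrain-rich libraries and 79.7, 106 and 124 CPM in the others, without overlap. Its log2 fold change was -1.05 (SE 0.09, edgeR adjusted p = 3.03e-09); in the mouse annotation of GRCm38, 15.1% of its exonic bases are shared with Hmgxb3 on the opposite strand, and the strand setting of the counts is not given in the sources used here. Mertk, a receptor for uptake of dying cells, changed by -0.89 with ranges apart.

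The 2 receptors for transforming growth factor beta differed from each other in size. Tgfbr1 had 19.3, 24.2 and 32.8 CPM in the hindbrain-rich libraries and 31.7, 35.7 and 39.4 CPM in the others, and passed at -0.54 (SE 0.07, edgeR adjusted p = 1.94e-06). Tgfbr2 had 25.9, 30.0 and 39.0 CPM in the hindbrain-rich libraries and 27.2, 33.0 and 39.3 CPM in the others, so that its groups covered nearly the same range. Its log2 fold change was -0.09 (SE 0.07, edgeR adjusted p = 0.239); the 95% interval reached 0.04 at its upper end. The difference between the 2 receptors was not tested.

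The 3 transcription factors all passed as lower, with a median of -0.70, and for 0 of them were the ranges apart. Spi1 changed by -0.78 and Irf8 by -0.70. Sall1, which is needed for microglial identity, had 18.3, 23.7 and 39.5 CPM in the hindbrain-rich libraries and 28.9, 33.5 and 39.7 CPM in the others. E3-10 1, at 39.5 CPM, lay among the highest of all libraries, while the other 7 hindbrain-rich libraries, at 18.3 to 24.8 CPM, were below every other library. The log2 fold change of Sall1 was -0.50 (SE 0.10, edgeR adjusted p = 0.000296).

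The 5 enzymes and transporters passed as lower with a median of -0.59. Inpp5d, the phosphatase SHIP1, stood out at -1.25 with ranges apart, beside Entpd1, the ectoenzyme CD39 that breaks down ATP and ADP, at -0.76. Rnase4, a secreted ribonuclease, moved little but evenly: 9.10, 10.8 and 12.4 CPM in the hindbrain-rich libraries and 13.5, 16.4 and 18.7 CPM in the others did not overlap, at a log2 fold change of -0.59 (edgeR adjusted p = 4.85e-08). In the GRCm38 annotation 13.4% of its exonic bases are shared with Ang on the same strand. Slco2b1, an organic anion transporter, changed by -0.51 and Ltc4s, leukotriene C4 synthase, by -0.46. The remaining 3 genes, Aif1 (the actin-binding protein IBA1), Laptm5 (a lysosomal membrane protein) and Olfml3 (a secreted olfactomedin-like protein), changed by -1.12, -0.91 and -0.85.

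Other genes of microglia moved in the same direction in most cases. Of the 26 other core microglia genes, 21 passed as lower and 2 as higher in hindbrain-rich libraries, with a median of -0.84. Cd68, a lysosomal glycoprotein, changed by -1.10, Trem2, a lipid-sensing receptor, by -1.05, and C1qa, a chain of the complement component C1q, by -0.83. Itgb5, an integrin chain, and Hk2, a hexokinase, passed as higher, at 0.50 and 1.28. Of 20 disease-associated microglia genes tested, 4 passed as higher and 3 as lower, with a median of -0.03. The shares over all genes tested were 30.1% as higher and 27.4% as lower.

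Genes for maintenance signals of microglia did not move as 1 group. The list of 17 holds ligands of the receptors and other genes, such as Smad3 and Itgav. Of these 17, 7 passed as lower and 4 as higher, where 27.4% and 30.1% of all genes did. Cx3cl1, the fractalkine ligand of Cx3cr1, had 71.1, 90 and 119 CPM in the hindbrain-rich libraries and 285, 440 and 575 CPM in the others, without overlap, a log2 fold change of -2.25 (SE 0.14, edgeR adjusted p = 7.3e-11). Il34, a neuronal ligand of Csf1r, had 12.6, 15.3 and 19.7 CPM in the hindbrain-rich libraries and 31.8, 55.7 and 73.4 CPM in the others, also without overlap, at -1.79 (SE 0.14, edgeR adjusted p = 8.62e-10). Csf1, the other ligand of Csf1r, passed as higher, at 0.24 (SE 0.07, edgeR adjusted p = 0.00696), with 29.9 to 47.7 CPM in the hindbrain-rich libraries and 23.1 to 35.8 CPM in the others. Tgfb1 had 6.63 to 8.67 CPM in the hindbrain-rich libraries and 6.58 to 10.5 CPM in the others and did not pass. Tgfb2 did not pass either, while Tgfb3 passed as higher, at 0.23. Gas6 passed as higher, at 0.40, and Pros1 as lower, at -0.18.

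Markers of other cells were set beside these changes. Over all genes tested 27.4% passed as lower and 30.1% as higher, and several of the counts below lie near those shares. Of 11 genes of border macrophages tested, 3 passed as lower and 0 as higher; their summed level was 22.0 to 32.2 CPM in the hindbrain-rich libraries and 26.2 to 42.3 CPM in the others, against 327 to 484 and 591 to 834 CPM for the 29 genes. Of 12 endothelial genes, 0 passed in either direction, with a median of -0.05, and their sum was 495 to 688 CPM in the hindbrain-rich libraries and 518 to 646 CPM in the others. Of 12 genes each, 6 of astrocytes passed as higher and 1 as lower, and 3 of oligodendrocytes as higher and 1 as lower. Of 12 striatal genes, 12 passed as lower, and of 16 cerebellum and hindbrain genes, 16 as higher. The split was noticed from genes of the cerebellum and hindbrain, so the result for that list was set in advance. Of 12 excitatory genes of cortex and hippocampus, 10 passed as lower, and of 12 pan-neuronal genes 6 passed as lower and 3 as higher. Of 10 choroid plexus genes, 8 passed as higher, and of 6 red cell genes 4 passed as higher, with a median of 1.25. Of 11 mural and fibroblast genes, 4 passed as higher and 1 as lower, and of 10 genes of other leukocytes 3 as higher and 1 as lower. Of 10 thalamus genes, 2 passed as higher and 3 as lower, and of 6 pituitary genes 1 as higher. The part of cell mixture in the lower level of the 29 genes was not tested.

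The 16 other libraries were compared by their place in the sets of adjacent columns. Between place 1 and place 2, 0 of the 29 genes passed (edgeR, 0% of all genes passed). Of the 29, 0 were under 0.05 before adjustment, and 0 were called by limma-voom or DESeq2. The median log2 difference was -0.10, with 25 genes below 0 and 4 above 0. Spi1 at -0.257 (SE 0.134), Olfml3 at -0.165 (SE 0.088) and P2ry12 at -0.197 (SE 0.109) had the smallest p.

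Between E4 and E3 no homeostatic microglia gene passed the test. Averaged over the time codes, 0 of the 29 passed in either direction (edgeR, with the term for hindbrain-rich columns; 0% of all 20437 genes passed), 15 were above 0 and 14 below 0, and the median log2 fold change was 0.00, as over all genes. The number with an unadjusted p under 0.05 was 0, and 0 were called by limma-voom or DESeq2. The mean of the 29 was 3.14, 3.09, 2.89 and 2.97 log2 CPM in the 4 hindbrain-rich E4 libraries, against 3.09, 3.39, 2.91 and 2.97 log2 CPM in the 4 hindbrain-rich E3 libraries. Among the other libraries it was 3.96 ± 0.10 in E4 and 3.92 ± 0.18 log2 CPM in E3 (SD, n = 8 each). The groups overlapped in both classes, and the spread was larger in E3.

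**Figure D3:**
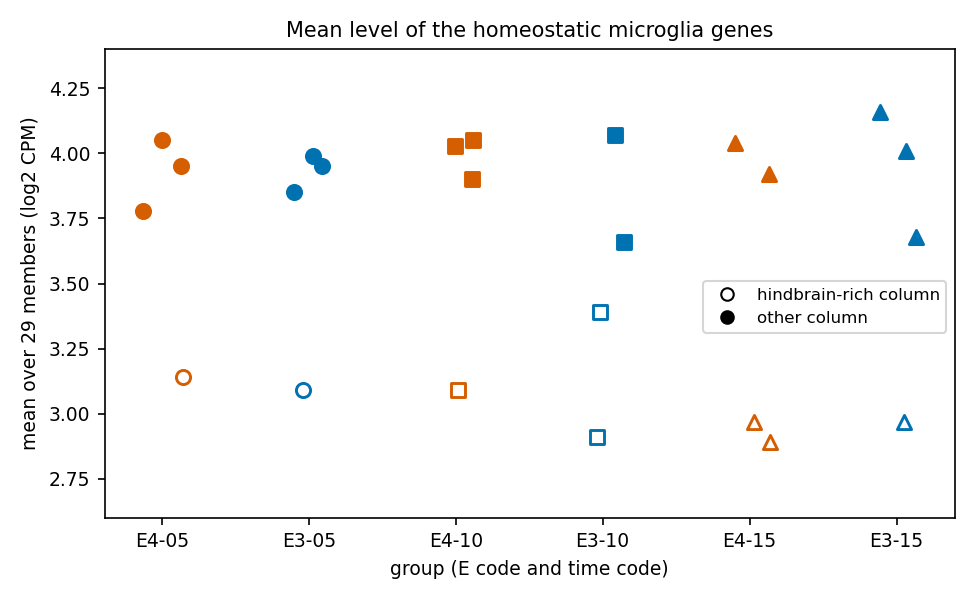
Mean log2 CPM over the 29 genes in each library, by E code and time code, with hindbrain-rich libraries marked apart from the others. The hindbrain-rich libraries lie at 2.89 to 3.39 log2 CPM in each group and the others at 3.66 to 4.16, and E4 (orange) and E3 (blue) overlap among the other libraries at each time code (circles 05, squares 10, triangles 15).

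Single genes gave narrow intervals for the average. P2ry12 had 15.8, 15.9, 14.8 and 16.2 CPM in the hindbrain-rich E4 libraries, against 16.3, 18.7, 14.5 and 17.4 CPM in the hindbrain-rich E3 libraries. Among the other libraries its lowest, median and highest values were 31.9, 42.5 and 48.2 CPM in E4 and 27.8, 41.3 and 59.4 CPM in E3. The E4 values of P2ry12 lay within the E3 range in both classes; its log2 fold change was -0.01 (SE 0.09, 95% interval -0.20 to 0.18), so that the interval spans 0.872 to 1.13 of the E3 level.

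Csf1r had 49.2, 47.1, 41.0 and 50.7 CPM in hindbrain-rich E4 libraries, against 51.0, 68.3, 46.1 and 48.3 CPM in hindbrain-rich E3 libraries. In the other libraries it had 93.6, 106 and 112 CPM in E4 and 79.7, 104 and 124 CPM in E3. The groups overlapped, and E3-10 1 was the highest hindbrain-rich library. The interval of its log2 fold change ran from -0.20 to 0.12.

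Cx3cr1 had 25.5, 23.8, 23.8 and 26 CPM in hindbrain-rich E4 libraries, against 25.2, 32.9, 23.8 and 23.9 CPM in hindbrain-rich E3 libraries. In the others it had 45, 62.6 and 65.8 CPM in E4 and 46.1, 57.5 and 73.9 CPM in E3. Its groups overlapped too, with an interval of -0.16 to 0.17. The intervals of Tmem119 (-0.20 to 0.13) and Sall1 (-0.23 to 0.16) were of like width.

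For 28 of the 29 genes the 95% interval of the averaged difference lay within 0.5 of 0 on the log2 scale; the exception was Gpr183, at -0.27 (interval -0.63 to 0.09), which also had the smallest p of the 29. Gpr183 was at 0.509, 0.834 and 1.18 CPM (lowest, median and highest) in hindbrain-rich E4 libraries and at 0.673, 0.881 and 1.12 CPM in hindbrain-rich E3 libraries. Next by p were Fcrls, at 0.15 (interval -0.07 to 0.36), and Tgfbr2, at -0.08 (interval -0.20 to 0.05). Each had an edgeR adjusted p of 1.

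**Figure D4:**
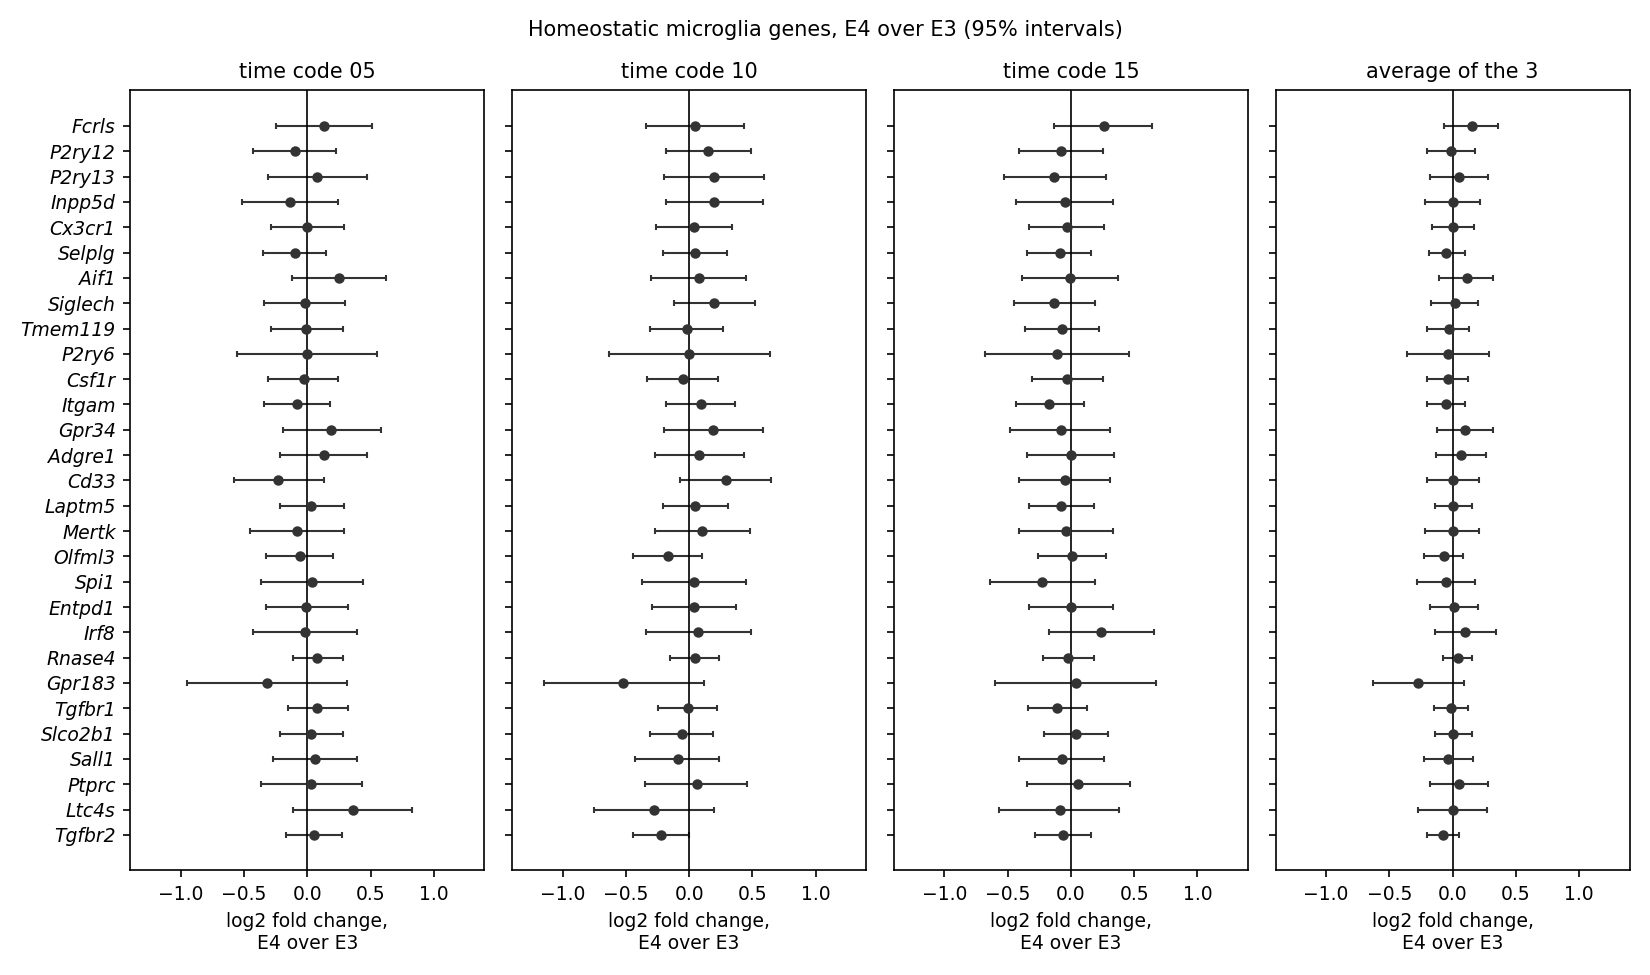
Log2 fold change of each gene, E4 over E3, at time codes 05, 10 and 15 and averaged, with 95% intervals. The points lie on both sides of 0, and the averaged intervals run from -0.63 to 0.36.

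The comparisons at single time codes share their libraries with the average and gave 0 calls among the 29 each, where 0%, 0.00979% and 0% of all genes passed at time codes 05, 10 and 15 (edgeR; DESeq2 and limma-voom also called 0 of the 29). The median was 0.00 at time code 05, 0.05 at 10 and -0.05 at 15, with 15, 20 and 7 genes above 0. Without the term for hindbrain-rich columns, which E4 and E3 hold in unequal numbers at 10 and 15, the median was 0.29 at 10 and -0.22 at 15. With the term, lists of brain regions also had medians away from 0, though 0 of their genes passed. At time codes 05, 10 and 15 these were -0.114, 0.839 and 0.025 for striatal genes. They were 0.395, -0.894 and -0.634 for cerebellum and hindbrain genes, and 0.613, -0.571 and -0.161 for thalamus genes. The part of tissue makeup in E4 minus E3 of the 29 was not tested. An unadjusted p under 0.05 was reached by 0, 1 and 0 of the 29. The 1 was Tgfbr2 at time code 10. It had 29.8 CPM in the hindbrain-rich library and 30.0, 31.3 and 30.0 CPM in the other libraries of E4-10, against 39.0 and 28.4 CPM in the hindbrain-rich and 37.5 and 34.1 CPM in the other libraries of E3-10. The E4-10 libraries lay close together; among the other libraries all 3 were below both of E3-10, and the hindbrain-rich one lay between the E3-10 values. The log2 fold change of Tgfbr2 was -0.22 (SE 0.11, edgeR adjusted p = 0.943).

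The other genes with the smallest p at each time code did not pass either. At time code 05 they were Ltc4s at 0.36 (SE 0.23), Aif1 at 0.25 (SE 0.18) and Cd33 at -0.23 (SE 0.17). At time code 10 they were Gpr183 at -0.52 (SE 0.31) and Cd33 at 0.29 (SE 0.17), and at time code 15 Fcrls at 0.26 (SE 0.19), Itgam at -0.17 (SE 0.13) and Irf8 at 0.24 (SE 0.20). Cd33 had opposite signs at time codes 05 and 10. The intervals over the 29 ran from -0.95 to 0.83 at time code 05, from -1.15 to 0.65 at 10 and from -0.68 to 0.67 at 15, and these set the sizes of difference that single genes may still have. The test of whether E4 minus E3 differed between time codes 15 and 05 passed for 0 of the 29 and for 0% of all genes (edgeR; 0 at an unadjusted p under 0.05; DESeq2 and limma-voom 0), with Ltc4s (-0.45, SE 0.32), Tgfbr1 (-0.19, SE 0.16) and Gpr34 (-0.28, SE 0.26) at the smallest p.

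Time codes also gave no call among the 29. For time code 10 minus 05, averaged over E codes, 0 of the 29 passed and 0% of all genes did, with 22 genes above 0 and a median of 0.05 (edgeR; 0 at an unadjusted p under 0.05). The smallest p were those of Tgfbr1 at 0.15 (SE 0.08), Ptprc at -0.22 (SE 0.14) and Rnase4 at 0.11 (SE 0.07). For 15 minus 05, 0 of the 29 and 0.0538% of all genes passed (0.0294% as higher and 0.0245% as lower), and the median was 0.01. For 15 minus 10, 0 of the 29 and 0.00489% of all genes passed, with 23 genes below 0 and a median of -0.07. DESeq2 and limma-voom called 0 of the 29 in each of these comparisons. With a term for each set of 3 adjacent columns, Tmem119 passed for 10 minus 05 (log2 0.85, edgeR adjusted p = 0.0295), and the median of the 29 was 0.63. In that fit time codes 05 and 10 meet only in the set of headers 7 to 9. Its only library of time code 10 is E3-10 1, so these values rest on 1 library.

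P2ry12 shows how the levels lay over the time codes. In the other libraries its lowest, median and highest values were 31.9, 40.5 and 44.8 CPM at time code 05 (n = 6), 27.8, 40.7 and 48.2 CPM at 10 (n = 5) and 31.8, 45 and 59.4 CPM at 15 (n = 5). In the hindbrain-rich libraries it had 15.8 and 16.3 CPM at 05, 14.5, 15.9 and 18.7 CPM at 10, and 14.8, 16.2 and 17.4 CPM at 15. The time codes overlapped in both classes, and the fold change of 15 over 05 had an interval of 0.921 to 1.27.

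Ptprc had the smallest p of the 29 for time code 15 minus 05, at -0.43 (SE 0.14, 95% interval -0.71 to -0.14, unadjusted p = 0.00534, edgeR adjusted p = 0.858). In the hindbrain-rich libraries it had 4.47 and 4.53 CPM at time code 05, 3.09, 3.17 and 3.85 CPM at 10, and 2.09, 2.52 and 3.03 CPM at 15. In the other libraries its lowest, median and highest values were 4.17, 4.98 and 6.73 CPM at 05, 3.78, 4.73 and 5.50 CPM at 10, and 3.07, 4.57 and 4.86 CPM at 15. The time codes did not overlap in the hindbrain-rich libraries, where each has 2 or 3, and overlapped in the others. Adgre1 (-0.26, SE 0.12) and Spi1 (-0.30, SE 0.14) were also under an unadjusted p of 0.05 for 15 minus 05, as were Adgre1 (-0.28, SE 0.12) and Ltc4s (0.34, SE 0.16) for 15 minus 10; Entpd1 was the third by p there, at -0.21 (SE 0.11). Each of these had an edgeR adjusted p between 0.609 and 0.956. Most blood genes lay below 0 in the same comparison: of 6 red cell genes, 6 were below 0 for 15 minus 05 and 1 passed, Hba-a2 (-2.80, edgeR adjusted p = 0.0459), and of 10 genes of other leukocytes 9 were below 0 and 0 passed, with a median of -0.83. The red cell genes summed to 6.15 to 285 CPM at time code 05, 7.04 to 58.8 CPM at 10 and 6.69 to 25.9 CPM at 15, and the leukocyte genes to 9.05 to 50.1, 7.55 to 57.4 and 3.79 to 24.1 CPM. The 3 libraries with Hbb-bs above 100 CPM are all at time code 05. Without them the log2 difference was -0.39 for Ptprc, -0.24 for Adgre1 and -0.35 for Spi1, with an edgeR adjusted p of 0.927 each. E4-05 3, with the highest leukocyte sum at time code 05 (50.1 CPM), had 44.1 CPM of Hbb-bs and stayed in that fit. The part of blood cells in these differences was not tested.

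The genes moved together from library to library within each class. Over the 406 pairs of the 29 genes, the median Pearson r of log2 CPM was 0.49 in the 8 hindbrain-rich libraries, with 87.2% of pairs positive, and 0.47 in the 16 others, with 88.2% positive. Over all 208825266 pairs of tested genes the median was 0 in both classes, and 49.9% and 49.7% were positive. On the residuals of the fit, over all 24 libraries, the median over the 406 pairs was 0.51. The libraries share depth and tissue makeup, so r is given as a description. In the 8, the median fell to 0.28 without E3-10 1 and ran to 0.56 without another library; in the 16 it ran from 0.39 to 0.49 with each library left out in turn.

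**Figure D5:**
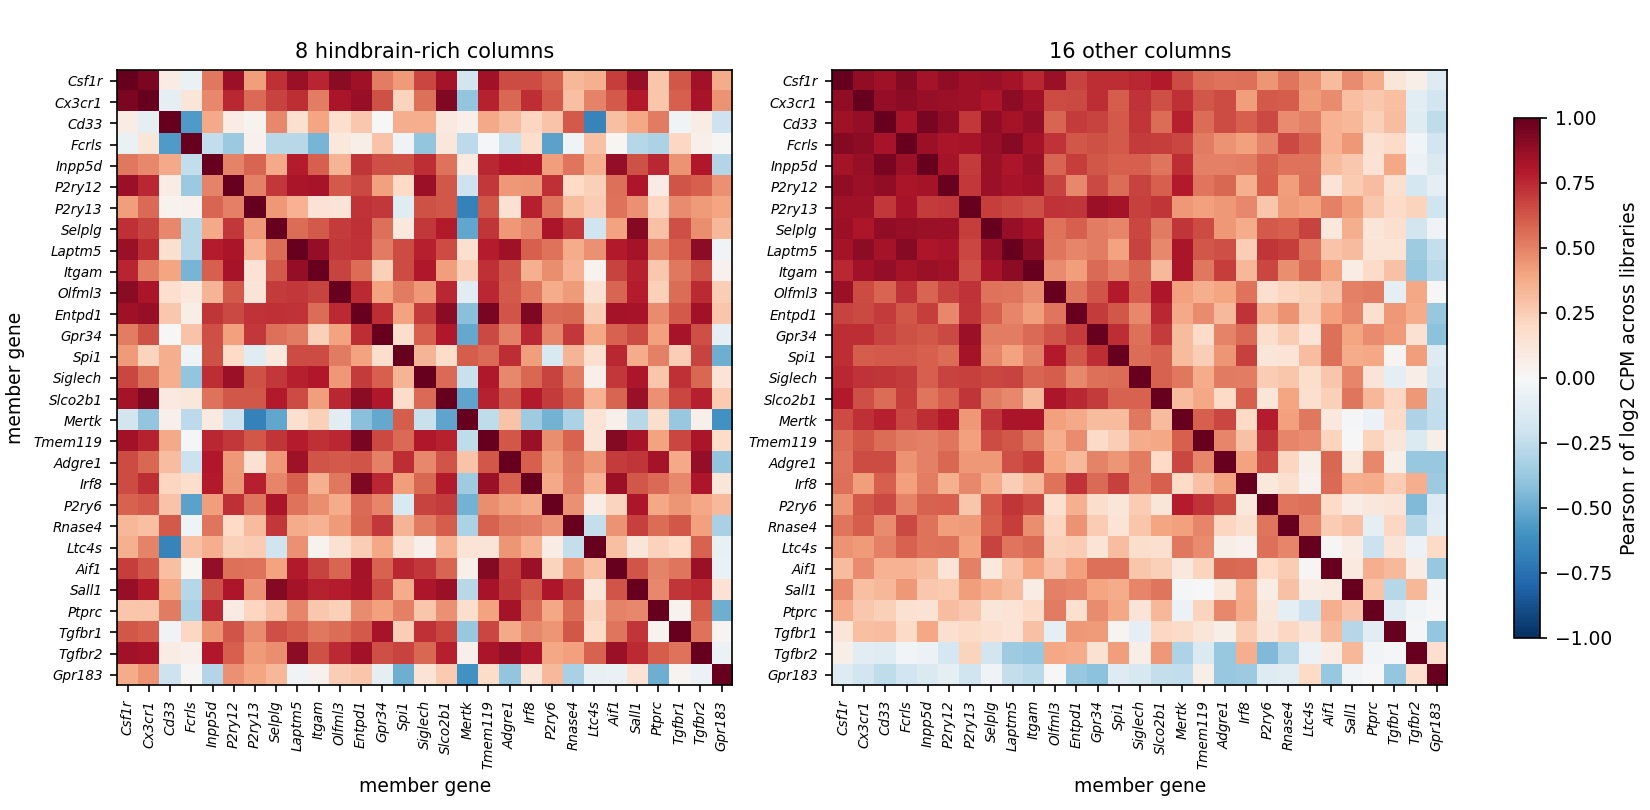
Pearson r of log2 CPM for each pair of the 29 genes across the 8 hindbrain-rich libraries (left) and the 16 other libraries (right), with the genes in 1 order in both panels and a colour scale from -1 to 1. In the right panel r runs from -0.44 to 0.95 and falls towards Tgfbr2 and Gpr183 at the end of the order, and in the left panel Fcrls and Mertk are pale or blue.

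A tight core was seen in the 16 other libraries. The r of a gene with the mean of the other 28 genes was 0.95 for Csf1r, 0.94 for Cx3cr1, 0.92 for Cd33 and 0.91 for Fcrls. It was 0.39 for Sall1, 0.30 for Ptprc, 0.20 for Tgfbr1, 0.00 for Tgfbr2 and -0.24 for Gpr183. The closest pairs were Cd33 with Inpp5d (r = 0.95), Csf1r with Fcrls (0.92) and Fcrls with Laptm5 (0.91), and the lowest was P2ry6 with Tgfbr2 (-0.44). The genes that followed the core least included both receptors for transforming growth factor beta.

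The order was not the same in the 8 hindbrain-rich libraries. There the r with the mean of the other genes was 0.93 for Entpd1 and Tmem119, 0.92 for Sall1 and 0.91 for Tgfbr2, and 0.23 for Cd33, 0.04 for Gpr183, -0.15 for Fcrls and -0.25 for Mertk. With 8 libraries, of which E3-10 1 is high in most of the genes, these values rest on few points. Gpr183 had a low r in both classes.

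Outside the list, the 10 genes closest to the mean of the standardised levels of the 29 over the 16 other libraries had r of 0.87 to 0.96. Mpeg1, a pore-forming protein of macrophages (r = 0.89), and Abi3, an adaptor of the actin machinery found in microglia (r = 0.87), also followed the mean in the 8 hindbrain-rich libraries, with r of 0.91 and 0.85. They were lower in hindbrain-rich libraries too, at -0.88 (SE 0.10) and -1.03 (SE 0.13). The highest, 5930403L14Rik, had r of 0.96 in the 16 and 0.65 in the 8. Gipc1 had 0.88 in the 16 and 0.79 in the 8, and Nlrx1 0.88 and 0.44. The other 5, Ankrd13b, Mgat4b, Gm36841, Gm35948 and Cd276, were at 0.87 to 0.89 in the 16 but below 0 in the 8, from -0.78 for Gm35948 to -0.32 for Gm36841.

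Levels of the 29 also varied with the makeup of the 16 other libraries. Across these 16 the mean of the 29 had Pearson r of -0.79 (Spearman's rho -0.71) with the mean of the cerebellum and hindbrain genes. That list was low in these 16, at a mean of -1.61 to 0.85 log2 CPM. The r was -0.73 (rho -0.71) with the mean of 10 thalamus genes and 0.56 (rho 0.38) with that of the striatal genes. With the excitatory genes of cortex and hippocampus it was 0.43 (rho 0.56). Without the 2 libraries farthest from the median of each list, these r were -0.85, -0.62, 0.30 and 0.44. With the maintenance signals r was 0.73 (0.58 without 2 libraries), and with the disease-associated genes it was 0.04 (rho 0.01, and r -0.18 without 2 libraries). In the 8 hindbrain-rich libraries the r with the cerebellum and hindbrain genes was -0.15, and with the disease-associated genes it was 0.87 (rho 0.71, and r 0.59 without the 2 farthest libraries). The r with oligodendrocyte genes, 0.84 in those 8, was -0.06 without the 2 farthest libraries and so rests on them.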

How the data were processed

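The authors deposited unnormalized counts for 40836 gene symbols in 24 columns, from polyadenylated RNA of mouse brain; each column was joined to its library by the header given in the labels. Per the submitters' processing notes, HISAT2 2.1.0, featureCounts 2.0.6 and mm39 were used; neither annotation nor strand setting is given in the sources used here. Among low counts, 62.6% to 70.8% per library were even, so the counts may overstate the number of fragments, which was not tested. Titles number biological replicates within each month and across both E codes, so these do not match the groups tested here. No label ties the libraries to separate animals. The p-values then measure only the spread between these libraries, which may be technical.

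Genes were kept with filterByExpr (20437) and tested with edgeR 4.0.16 in R 4.3.3: TMM normalization, terms for the 6 groups and 1 term for columns with a header that is a multiple of 3 (17 residual degrees of freedom), quasi-likelihood F tests, and Benjamini-Hochberg adjustment over all genes at 0.05. The biological coefficient of variation was 22.5%, and 40.8% without the header term. SE is the log2 fold change divided by the square root of F. Levels are CPM, and log2 CPM with a prior count of 2. Levels per kilobase use GENCODE M21 exons of GRCm38. Correlations are Pearson's r within each class of columns. Alternatives were RLE factors, no filter and 1 CPM in 8 libraries, DESeq2 1.42.0, limma-voom (limma 3.58.1), a replicate block, titled month, sets of adjacent columns, place in the set, no header term, leaving out the 8 columns, leaving out libraries rich in Hbb-bs or Gh, and leaving out each library. The members and lists were chosen with earlier results of these data known. Levels by class of column were given for P2ry12, Tmem119, Cx3cr1, Csf1r and Sall1, and levels by E code for P2ry12, Cx3cr1 and Csf1r. Each comparison names the 3 members with the smallest p and any member that passed against the sign of the median. Up to 4 genes of other lists and the 10 genes nearest in pattern were named too, and further genes were chosen after their values were seen.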

Additional observations from a re-analysis of the deposited data

Results flagged for a closer look

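Among 49 groups of values checked, 9 held 1 library whose gap to the next was large against the range of its group. Chance gives about 1 in 20 independent groups, which these are not, since the genes share libraries and enter the mean. In E3-05, library 2 had a mean of the 29 genes of 3.09 log2 CPM, where the others had 3.85 to 3.99, and 24.8 CPM of Sall1, where the others had 32.5 to 33.4. In E4-10, library 2 had a mean of 3.09 log2 CPM against 3.90 to 4.05, 13.1 CPM of Tmem119 against 24.3 to 25.5 and 23.8 CPM of Cx3cr1 against 60.8 to 65.4. Both libraries are the only hindbrain-rich one of their group, so these 5 values mark that split. In E4-10, library 3 had 31.3 CPM of Tgfbr2, where the others had 29.8 to 30.0, a small gap in CPM within a narrow range. Among the 8 hindbrain-rich libraries, E3-10 1 had 32.9 CPM of Cx3cr1 against 23.8 to 26, 68.3 CPM of Csf1r against 41.0 to 51.0 and 39.5 CPM of Sall1 against 18.3 to 24.8.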

How the results depend on the processing

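In hindbrain-rich columns the number of the 29 genes that passed as lower was 27 or 28 under all alternatives run, with 0 higher and a median log2 fold change between -0.98 and -0.88; the 1 call lost was Gpr183, without the libraries with Hbb-bs above 100 CPM (adjusted p = 0.0573) and without single libraries. Leaving out E3-10 1, added after the data were seen, changed no call. E4 minus E3 and time code comparisons gave 0 calls under every alternative with 1 exception. With a term for each set of 3 adjacent columns, Tmem119 passed for time code 10 minus 05 (1 call, log2 0.85, edgeR adjusted p = 0.0295). The median of the 29 was then 0.63 for 10 minus 05 and 0.48 for 15 minus 05. In that fit the time codes are joined only through sets that hold libraries of 2 time codes. For 05 and 10 this is the set of headers 7 to 9, where E3-10 1 is the only library of time code 10. Both medians and the call thus rest on E3-10 1. Without the header term the median of E4 minus E3 was 0.29 at time code 10 and -0.22 at 15, where the groups hold unequal numbers of hindbrain-rich libraries. With each library left out in turn, the median of the averaged E4 minus E3 ran from -0.03 to 0.05, and the median r was 0.28 to 0.56 within the 8 hindbrain-rich libraries and 0.39 to 0.49 within the 16 others. The replicate block changed no call (28 lower in hindbrain-rich columns, 0 in the others). Libraries that share a number in other groups did not deviate together (median r of -0.015 over 60 pairs, against 0.013 over 180 pairs with different numbers). The numbers were not taken as pairs. These 60 pairs cross time codes as well as E codes, so pairing of E4 and E3 libraries within a time code was not tested. The low counts of Gpr183 limit its intervals.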

Other observations

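Of 20 disease-associated microglia genes tested, 4 passed as higher and 3 as lower in hindbrain-rich libraries, and 13 did not pass; over all genes 30.1% passed as higher and 27.4% as lower. The genes with the largest changes in each direction were Spp1 and Lpl. Spp1, the secreted protein osteopontin, had 39.1, 78.8 and 164 CPM (lowest, median and highest) in the 8 hindbrain-rich libraries and 7.84, 13.9 and 38.8 CPM in the 16 others, without overlap. Its log2 fold change was 2.27 (SE 0.23, edgeR adjusted p = 3.19e-08). Lpl, lipoprotein lipase, had 2.25, 3.71 and 10.5 CPM in the hindbrain-rich libraries and 12.9, 24.4 and 40.2 CPM in the others, also without overlap, at -2.40 (SE 0.25, edgeR adjusted p = 7.12e-08). Apoe, a lipid carrier that astrocytes also express, had 821, 878 and 992 CPM in the hindbrain-rich libraries and 909, 1020 and 1200 CPM in the others, and passed at -0.23. Cst7 and Clec7a, which rise in activated microglia, were at or below 1.46 CPM in every library and did not pass. Neurons and other cells also express Spp1 and Lpl, and the part of those cells was not tested.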
